A study of Mus musculus with 4 samples.

Results

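Replication-dependent histone genes were taken as every gene of the deposited expression table whose symbol starts with Hist1h, Hist2h, Hist3h or Hist4h, which gave 67 members of 23444 gene symbols. They comprise 6 genes for the linker histone H1, 18 for H2A, 18 for H2B, 12 for H3 and 13 for H4. By the GENCODE M21 annotation of GRCm38, 53 lie in the Hist1 cluster on chromosome 13, 10 in the Hist2 cluster on chromosome 3, 3 in the Hist3 group on chromosome 11 and 1, Hist4h4, on chromosome 6. The RNA came from lung cells labelled Pdgfra+ fibroblasts of wild-type (WT) C57BL6 mice. There was 1 library for each of 4 ages, E16.5 and E18.5 in days of gestation and P7 and P28 in days after birth. Where 4 values follow a gene or a sum without further words, they stand in this order of age. Lungs were dissected whole, and the sources used here do not give how many animals entered a library. With 1 library per age no difference could be set against replicate error, so no test was run and each difference is one between 2 libraries.

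Histone genes of these clusters supply the bulk of the histones that package newly copied DNA, and their mRNAs accumulate while cells are in S phase. H2A, H2B, H3 and H4 form the core of the nucleosome, whereas H1 binds the DNA that links nucleosomes. Most of these mRNAs carry no introns and end in a short stem-loop, bound by the protein SLBP, in place of a poly(A) tail. Some of the genes can also give longer, polyadenylated mRNAs, which have been described in differentiated cells.

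The stem-loop is shown first because it is the 3′ end shared by the family and because the recovery of such mRNAs depends on how cDNA is primed, which the sources used here do not give. The histone stem-loop consensus was searched on the sense strand over the whole GENCODE M21 transcripts and was found in 46 of the 67 members. The last match was kept, and in all 46 it lay downstream of the stop codon. For a member with several protein-coding transcripts, the one with the most matches was used, then the longest. Among the 21835 protein-coding genes that are no member, 90 (0.412%) held it in a transcript. In the lines below, which give the forms found in abundant members, the 16 bases of the stem-loop are in capitals with 5 flanking bases on each side.
Hist1h2bm: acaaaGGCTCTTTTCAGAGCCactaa
Hist1h1e: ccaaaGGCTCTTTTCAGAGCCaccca
Hist2h2ac: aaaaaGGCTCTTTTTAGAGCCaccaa
Hist1h2bb: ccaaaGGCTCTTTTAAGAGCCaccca
Hist1h3e: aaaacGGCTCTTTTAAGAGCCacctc
Hist1h4d: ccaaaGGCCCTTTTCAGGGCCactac
Hist1h4c: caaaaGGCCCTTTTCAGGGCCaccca
Hist2h4: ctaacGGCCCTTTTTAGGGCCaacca
Hist1h4j: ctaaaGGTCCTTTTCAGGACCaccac
The 46 stem-loops took 8 forms. The form of Hist1h2bm occurred in 26 members, made up of 3 H1, 10 H2A, 8 H2B and 5 H3 genes. The form of Hist1h4d occurred in 7 members, all of them H4 genes. None of the 4 forms found in H4 genes occurred in a gene of another type. The stem-loop began a median of 31 bases after the stop codon (range 21 to 58). Of the 21 members without a match, 13 have gene models that hold no base after the stop codon, so the absence says nothing of the transcript.

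Promoters are shown for 2 abundant members because motif content differed by histone type. RefSeq windows on GRCm38.p6, from 250 bases before to 50 bases after the start, were matched for 60 members. Both strands were searched for the CCAAT box (letters CCAAT), for the TATA box (letters TATAAA) and for the octamer bound by POU-domain factors (letters ATTTGCAT), and matches to different motifs may overlap. The capitals below mark the matches on either strand.
Hist1h2bm, chr13:21721794-21722093, plus strand: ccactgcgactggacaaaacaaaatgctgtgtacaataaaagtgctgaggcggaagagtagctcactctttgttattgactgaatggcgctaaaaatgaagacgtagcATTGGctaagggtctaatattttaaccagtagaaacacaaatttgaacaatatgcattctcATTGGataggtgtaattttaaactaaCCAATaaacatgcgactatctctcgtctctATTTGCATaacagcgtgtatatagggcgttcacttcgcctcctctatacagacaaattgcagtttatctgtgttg
Hist1h1b, chr13:21780576-21780875, minus strand: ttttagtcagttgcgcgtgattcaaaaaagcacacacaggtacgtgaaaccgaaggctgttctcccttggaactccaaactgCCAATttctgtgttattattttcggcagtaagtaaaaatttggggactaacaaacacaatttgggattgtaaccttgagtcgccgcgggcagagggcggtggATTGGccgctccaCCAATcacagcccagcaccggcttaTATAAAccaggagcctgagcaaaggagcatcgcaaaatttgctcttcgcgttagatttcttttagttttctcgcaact
CCAAT was present in all 6 H1, 17 H2A, 15 H2B and 10 H3 windows and in 3 of 12 H4 windows, against 37.4% of all 32817 RefSeq windows. TATAAA was present in 35 of 60 members (58.3%), against 13.6% of all windows. ATTTGCAT was present in 7 of 17 H2A and 6 of 15 H2B windows and in no H1, H3 or H4 window, against 1.74% of all windows. Many H2A and H2B genes lie head to head with close starts, so their windows overlap and the same match can count in both. Hist1h2bm holds CCAAT and the octamer, and Hist1h1b holds CCAAT and TATAAA. A match describes the letters and is not a binding site.

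Whole-library values that touch every comparison are given once. Values are FPKM, fragments mapped per unit of transcript length and of library size, as deposited. The E18.5 library had the smallest sum of FPKM over all symbols, 100231, against 180010 to 220221 in the others. Median-ratio scaling over 7930 genes gave factors of 1.15, 0.581, 1.38 and 1.08. Deposited values divided by these factors are called scaled. Values of single genes are as deposited unless called scaled. Pdgfra was at 88.7, 95.9, 113 and 188 FPKM from E16.5 to P28. Markers of other cell types were present as well: 10 leukocyte markers summed to 1561, 79.7, 25.2 and 5505 FPKM, 10 endothelial markers to 26.3, 34.6, 1200 and 286, 10 epithelial markers to 33.9, 142, 48.5 and 30962, 9 erythroid markers to 67.4, 616, 22.0 and 1.65, and 6 mesothelial markers to 2.21, 11.8, 52.0 and 163. Lyz2, at 5062 FPKM, made up most of the leukocyte sum at P28, where Ptprc, which defines leukocytes, was at 0.098. Of the 9 erythroid markers, 1, 0, 1 and 4 were listed at 0. The part of these cell types in the histone values was not tested. In bulk RNA, fewer cycling cells and less histone RNA per cell cannot be told apart.

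Of the 67 members, 37 reached 1 FPKM in some library and 25 reached 5 FPKM. A further 17 stayed under 1 FPKM but above 0 in some library, and 13 were listed at 0 in all 4. By library, 17, 28, 23 and 41 members were at 0. As a share this was 25.4%, 41.8%, 34.3% and 61.2% of members, whereas for all symbols it was 27.8%, 26.5%, 28.1% and 26.1%. All 25 members that reached 5 FPKM did so at E16.5, against 9 in the E18.5 library, 19 in the P7 library and 7 in the P28 library. These counts use deposited values, are not adjusted for the scale of a library and were not made over all symbols. Of the 25, 22 were highest at E16.5, both as deposited and scaled. Among all symbols at 5 FPKM or more, 27.0% as deposited and 26.4% scaled were.

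Several members are close copies, so fragments may have been assigned to the wrong copy or left unassigned. The share of a member's 50-base words that also occur in another annotated gene was taken as a guide to this. Genes annotated over the same stretch of DNA count as well, as Gm20628 does for Hist2h2bb, so a high share need not mean a close copy. The median share was 93.1% (range 23.8% to 100%) in the 13 members listed at 0 throughout, and 8 of them exceeded 90%. In the 25 members at 5 FPKM or more the median was 43.8% (range 0 to 100%), and 1, Hist2h2bb, exceeded 90%. In the other 29 the median was 47.0%, and 3 exceeded 90%. Hist1h1a and Hist1h1b shared no 50-base word with another gene and Hist1h4d 10.2%, whereas Hist1h2bl shared 82.8%. A listed 0 in a member such as Hist2h2aa1, whose words are all shared, can be a failed estimate and is not read as absence. Hist1h2aa and Hist1h2ba, known mainly from testis, were also listed at 0 with 23.8% and 38.2% shared.

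**Figure D1:**
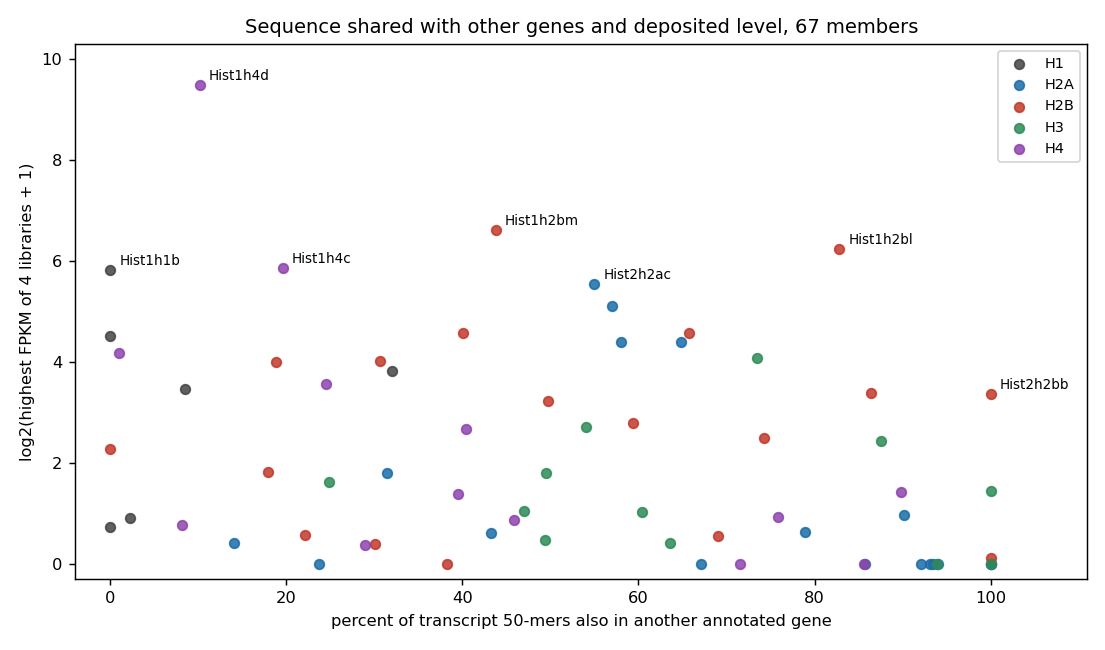
Each point is 1 member. The x axis gives the percent of its 50-base words that occur in another annotated gene and the y axis its highest log2(FPKM + 1) over the 4 libraries. Members at 0 throughout lie mostly at the right, with 8 of 13 above 90%, and 1 member at 5 FPKM or more lies there.

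The linker histone H1 genes that were detected were lower at P28 than at E16.5, and those most abundant at E16.5 differed most. Hist1h1b (H1.5; chr13:21779883-21780625, minus strand) was at 55.5, 6.55, 19.9 and 2.98 FPKM. Hist1h1a (H1.1) was at 21.9, 1.30, 8.46 and 0.677 FPKM. As deposited both were highest at E16.5, had a second, lower level at P7 and were lowest at P28. Scaled, Hist1h1b was at 48.4, 11.3, 14.4 and 2.76 FPKM, so that P7 lay little above E18.5. Hist1h1a was at 19.1, 2.23, 6.14 and 0.627 scaled. Hist1h1e (H1.4) was at 13.04, 4.52, 12.3 and 2.31 FPKM. Hist1h1c (H1.2), one of the genes known to give polyadenylated mRNA, was at 9.62, 7.64, 10.1 and 4.61 FPKM, the narrowest range of the 4. Hist1h1d (H1.3) stayed at or under 0.877 FPKM, and the testis gene Hist1h1t at or under 0.646 FPKM. Summed over H1 genes the values were 101, 20.2, 51.7 and 10.6 FPKM, or 88.1, 34.9, 37.5 and 9.87 scaled. The P7 sum thus exceeded the E18.5 sum 2.55-fold as deposited and 1.08-fold scaled.

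H2B genes showed the widest differences between E16.5 and E18.5 among the histone types. Hist1h2bm (chr13:21722044-21722567, plus strand, 1 exon) was the most abundant H2B gene at E16.5, with 96.2, 6.52, 35.1 and 3.01 FPKM. Hist1h2bl (chr13:21715763-21716143, minus strand) was at 74.4, 1.57, 29.97 and 1.57 FPKM, so that E16.5 and P7 stood far above E18.5 and P28. Hist1h2bb was at 22.9, 0.594, 12.99 and 0.342 FPKM. In all 3 genes the order was E16.5, then P7, with E18.5 and P28 low. Hist1h2bf was at 22.7, 0.488 and 11.9 FPKM and was listed at 0 at P28. The other H2B genes of the Hist1 cluster that reached 5 FPKM, Hist1h2bg, Hist1h2bh, Hist1h2bj and Hist1h2bn, ranged from 5.93 to 14.9, 0 to 1.15, 3.19 to 5.92 and 0 to 0.457 FPKM. Hist2h2bb was at 9.26, 1.41, 1.92 and 0 FPKM. Its words are shared with another gene, and its annotation overlaps the gene Gm20628.

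Hist1h2bc (chr13:23684199-23692908, plus strand, 2 exons in the model) departed from the other H2B genes that reached 5 FPKM. It was at 15.1, 3.97, 15.1 and 14.0 FPKM. It supplied 5.19%, 22.3%, 11.2% and 58.4% of the summed H2B FPKM. It therefore replaced Hist1h2bm as the most abundant H2B gene in the P28 library. Among the H2B genes under 5 FPKM, Hist2h2be was likewise no lower at P28 than at E16.5, with 3.46, 0.929, 3.61 and 3.82 FPKM. Summed over H2B genes the values were 291, 17.8, 135 and 24.0 FPKM, or 254, 30.7, 98.2 and 22.3 scaled. The E16.5 sum was 16.3 times the E18.5 sum as deposited and 8.26 times scaled, and the P7 sum was 7.59 times the E18.5 sum as deposited and 3.20 times scaled.

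H2A genes differed less between E16.5 and E18.5. Hist2h2ac, the H2A gene with the highest level at E16.5, was at 45.5, 17.3, 21.2 and 8.66 FPKM, and Hist1h2ak was at 33.4, 3.49, 27.5 and 5.63. Hist1h2ab was at 19.97, 14.5, 6.33 and 0 FPKM. Unlike most members it was higher at E18.5 than at P7, as deposited too. Hist2h2ab, whose annotation overlaps the gene Gm15444, was at 20.1, 0.713, 6.38 and 7.18 FPKM. Of the 18 H2A genes 9 were listed at 0 throughout, so the H2A sums are the ones most open to reads left unassigned. These sums were 124, 36.6, 64.3 and 24.1 FPKM, or 108, 63.0, 46.7 and 22.4 scaled, and the order of E18.5 and P7 turned with the scaling.

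H3 genes were low throughout. Hist1h3e was the most abundant at E16.5, with 15.96, 6.22, 5.26 and 0 FPKM. Hist1h3g was at 5.50, 0.514, 0.487 and 0 FPKM. Hist2h3c1 ran the other way at low levels, with 0.638, 0.309, 1.16 and 1.70 FPKM, and was chosen for naming after its values were seen. All of its 50-base words are shared with another gene, and its annotation overlaps the gene Gm20634. The H3 sums were 28.9, 8.82, 18.3 and 1.97 FPKM, or 25.2, 15.2, 13.3 and 1.83 scaled. They were thus 14.7 times higher at E16.5 than at P28, though with 12 genes they remained the smallest sum of the 5 types in every library.

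Among H4 genes, Hist1h4d (chr13:23581598-23582735, plus strand) was the most abundant histone gene in every library, at 714, 249.7, 346 and 157 FPKM. It alone made up 52.9%, 68.9%, 52.1% and 66.02% of the summed histone FPKM, so sums are given with and without it. Most H4 genes encode the same protein, but only 10.2% of the 50-base words of Hist1h4d recur in another gene. Hist1h4c was at 56.97, 15.4, 26.6 and 8.89 FPKM, with the same order of ages as Hist1h4d. Hist2h4 (chr3:96261682-96263311, minus strand) was at 14.0, 6.03, 17.0 and 9.10 FPKM and was one of 3 members at 5 FPKM or more that were highest at P7 as deposited. Of all symbols at 5 FPKM or more, 46.3% were highest at P7 as deposited. Scaled, 1 member was highest there, against 22.3% of these symbols. Hist1h4j was at 10.8, 0.931, 2.67 and 0 FPKM and Hist1h4a at 5.37, 1.82, 1.32 and 0. Hist4h4, the lone gene on chromosome 6, stayed between 0.336 and 0.711 FPKM. The H4 sums were 805, 279, 394 and 177 FPKM, and 91.8, 29.0, 48.3 and 20.04 without Hist1h4d. Scaled they were 702, 479.9, 286 and 164, and 80.0, 49.9, 35.0 and 18.6 without Hist1h4d. P7 was thus higher than E18.5 as deposited and lower scaled, with and without this gene.

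**Figure D2:**
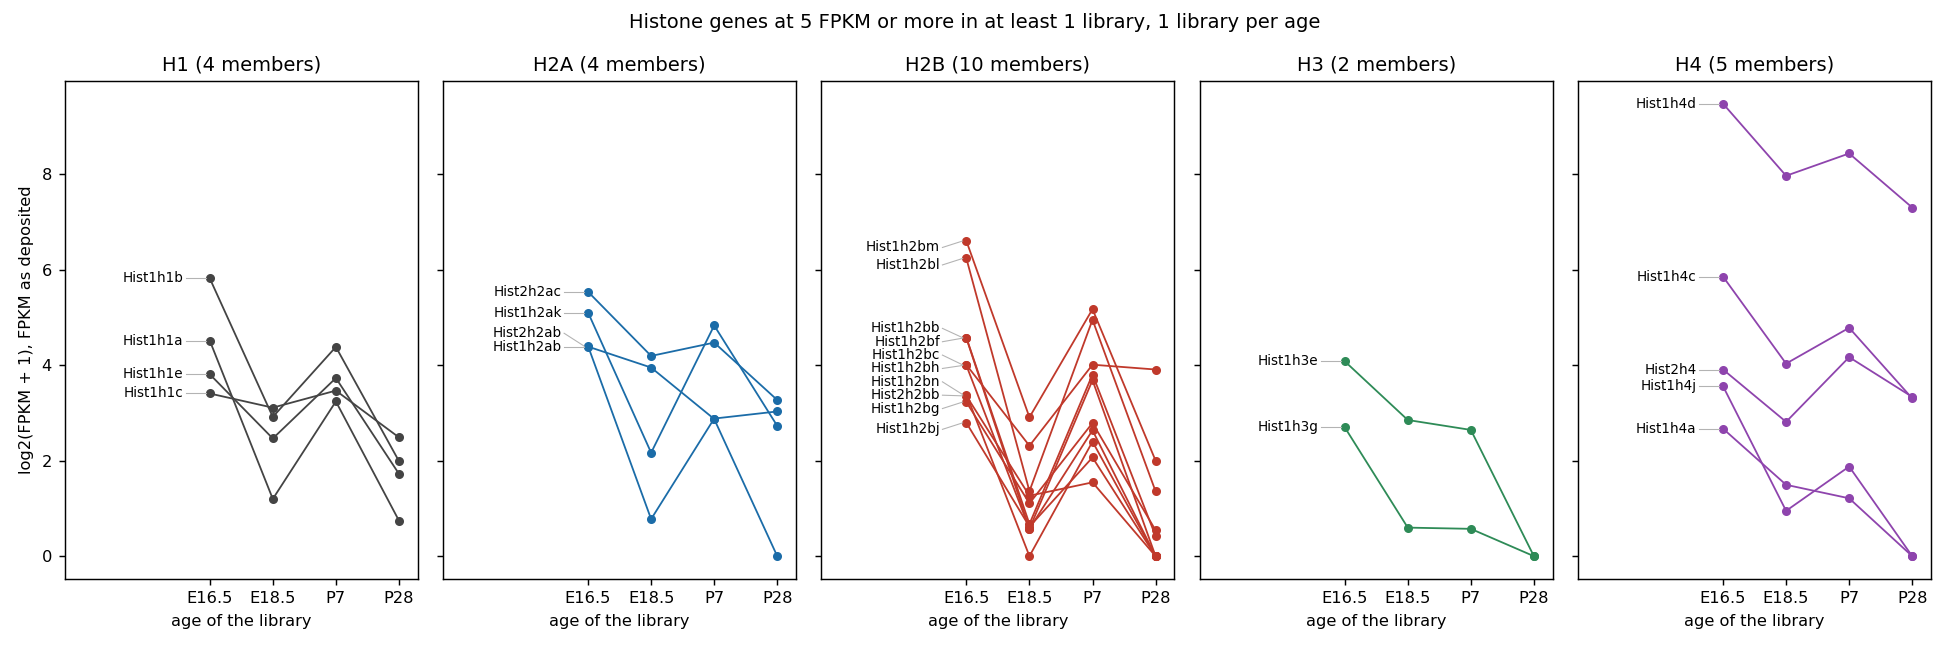
Lines join the log2(FPKM + 1) values, as deposited, of the 25 members that reached 5 FPKM, with the age of each library on the x axis and 1 panel per histone type. Most H1 and H2B lines are high at E16.5 and P7 and low at E18.5 and P28. Of the 25 members, 20 had both E16.5 and P7 above both E18.5 and P28 as deposited, and 14 scaled. Among all symbols at 5 FPKM or more this held for 42.7% as deposited and 18.5% scaled. Hist1h2bc stays near its E16.5 level at P28, and Hist1h4d is the highest line at every age.

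Over all members the summed FPKM was 1350, 362, 664 and 238, which was 0.75%, 0.361%, 0.341% and 0.108% of the summed FPKM of each library. Without Hist1h4d the sums were 637, 112, 318 and 80.8 FPKM. After scaling they were 1177, 624, 482 and 220 with Hist1h4d and 555, 194, 231 and 74.9 without it. E16.5 was highest and P28 lowest in all 4 versions. The order of E18.5 and P7 depended on the scaling and on Hist1h4d: scaled P7 was lower than scaled E18.5 with this gene and higher without it. By cluster, the deposited sums were 1253, 334, 609 and 204 FPKM for Hist1, 93.3, 26.7, 51.3 and 30.6 for Hist2, and 2.98, 0.454, 2.82 and 2.73 for Hist3. Scaled they were 1092, 576, 442 and 189 for Hist1, 81.3, 46.0, 37.2 and 28.4 for Hist2, and 2.60, 0.782, 2.05 and 2.53 for Hist3. The order of E18.5 and P7 turned with the scaling in Hist1 and Hist2, and so did that of E18.5 and P28 in Hist2.

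**Figure D3:**
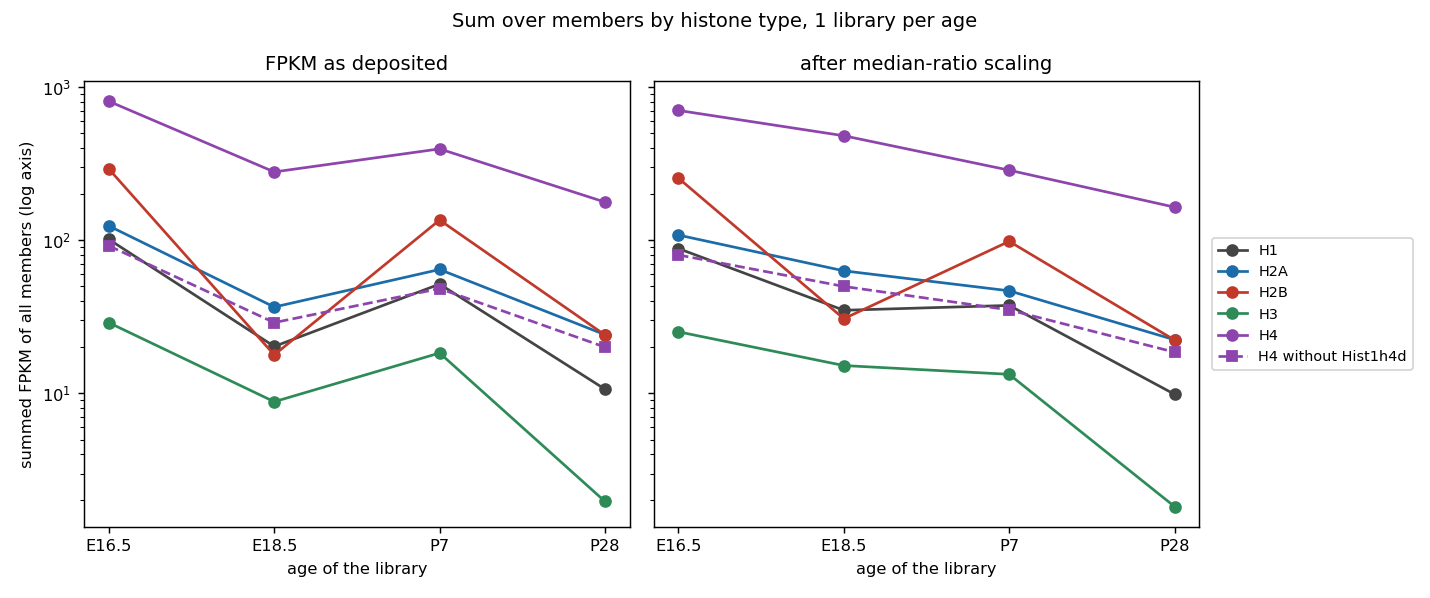
Summed FPKM of the members of each histone type at each age, as deposited and after median-ratio scaling, with H4 also without Hist1h4d. E16.5 is the highest library for all types and scalings. H2B at E18.5 is 17.8 FPKM as deposited and 30.7 scaled, in both cases below P7.

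Between E16.5 and E18.5, 23 of the 37 members at 1 FPKM or more were at least 2-fold lower at E18.5 on log2(FPKM + 1) with 5 FPKM or more in the higher library, where 22.6% of the 12561 symbols that reached 1 FPKM were, and 0 were higher, where 1.11% were. The median member difference was -1.59, against -0.71 for all these symbols. After scaling, 14 members were lower (5.84% of all symbols) and 0 higher (4.49%), and the medians were -0.94 and -0.03. The 14 were 2 H1 genes (Hist1h1a and Hist1h1b), 2 H2A genes (Hist1h2ak and Hist2h2ab), 9 H2B genes and Hist1h4j, and no H3 gene. The largest differences were those of Hist1h2bl (-4.87, scaled -4.15), Hist1h2bf (-3.99, scaled -3.50) and Hist1h2bb (-3.90, scaled -3.37). Hist1h1c (-0.30, scaled 0.59) and Hist1h2ab (-0.44, scaled 0.49) were the 2 members at 5 FPKM or more outside the deposited count.

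Between E18.5 and P7, by deposited values 13 members were 2-fold or more higher at P7, where 33.3% of all symbols were, so the members' share lay near that of all symbols. 1 member, Hist1h2ab (-1.08, scaled -2.21), was lower, where 1.52% of symbols were. After scaling, 6 members were higher (7.2% of all symbols) and 2, Hist1h2ab and Hist1h3e, were lower (5.88%). The median difference was 1.26 for members and 0.92 for all symbols as deposited, and 0.48 and 0.04 scaled. The members that differed most were again H2B genes: Hist1h2bl by 3.59 (scaled 2.62), Hist1h2bb by 3.13 (scaled 2.37) and Hist1h2bf by 3.11 (scaled 2.39).

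Between P7 and P28, 15 members were at least 2-fold lower at P28 (9.57% of all symbols) and 0 were higher (5.95%), with a median of -1.63 for members and -0.23 for all symbols. After scaling 9 were lower (5.21%) and 0 higher (7.42%), with medians of -1.33 and 0.03. Hist1h2ab, Hist1h2bg, Hist1h2bh and Hist1h3e left the count because their scaled P7 values fell below 5 FPKM. Their scaled differences were -2.48, -1.90, -2.26 and -2.27. Hist1h4d (scaled -0.78) and Hist2h2ac (scaled -0.86) left it because their differences fell short of 2-fold. Hist1h2bf (-3.69), Hist1h2bl (-3.59) and Hist1h2bb (-3.38) differed most as deposited. The members at 5 FPKM or more that differed least were Hist1h2bc (-0.10), Hist2h2ab (0.15) and Hist1h3g (-0.57), the last already near 0 at P7.

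Across the whole interval, 22 members were at least 2-fold lower at P28 than at E16.5 as deposited (9.51% of all symbols) and 0 were higher (10.1%), with medians of -2.38 for members and -0.03 for all symbols. After scaling 20 were lower (7.94%) and 0 higher (10.4%), with medians of -2.28 and 0.03. Hist1h3g (scaled -2.54) and Hist1h4a (scaled -2.51) left the count because their scaled E16.5 values fell below 5 FPKM. The 3 members at 5 FPKM or more that were not among the 22 were Hist1h2bc (-0.10), Hist2h4 (-0.57) and Hist1h1c (-0.92). Hist1h2bl (-4.88), Hist1h2bm (-4.60) and Hist1h2bf (-4.57) stood at the other end. P7 also lay below E16.5: 15 members were at least 2-fold lower (3.75% of all symbols) and 0 higher (8.84%), and after scaling 16 were lower (4.72%) and 0 higher (6.02%). The medians were -0.94 for members and 0.16 for all symbols, or -1.01 and -0.03 scaled. In that comparison Hist1h3g (-2.13), Hist2h2bb (-1.81) and Hist1h4j (-1.68) differed most, and Hist1h2bc (0.00), Hist1h1c (0.06) and Hist1h1e (-0.08) least. These 5 comparisons share libraries and are not independent of one another.

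Ratios within a library do not depend on its scale. Without Hist1h4d, H2B made up 45.7%, 15.9%, 42.6% and 29.7% of the summed histone FPKM. H2A made up 19.4%, 32.6%, 20.2% and 29.9%, and H1 18.0% at most and 13.2% at least. The ratio of summed H2A to summed H2B was 0.425, 2.05, 0.476 and 1.00. The E16.5 and P7 libraries thus resembled each other in the mixture of types, and E18.5 had the least H2B. These are sums of mapped FPKM over genes that differ in how many of their copies were detected, and do not measure histone protein.

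**Figure D4:**
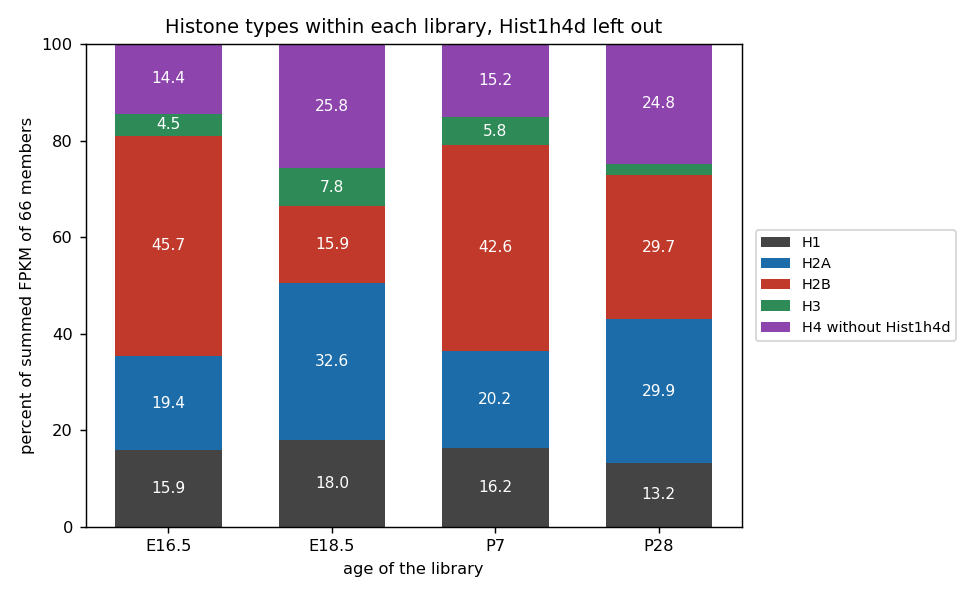
Stacked bars give the percent of the summed histone FPKM, without Hist1h4d, contributed by each histone type in each library. H2B contributes 45.7% at E16.5 and 42.6% at P7, and 15.9% at E18.5.

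Many H2A and H2B genes lie head to head with their starts close together, and 12 such pairs were found by position. The 4 pairs described here are examples, and in some of the others, such as Hist1h2ba and Hist1h2aa, both partners were at or near 0. Hist1h2ac and Hist1h2bc, with starts 250 bases apart, were at 0.298 and 15.1 FPKM at E16.5. Hist1h2bl and Hist1h2ai, 278 bases apart, were at 74.4 and 0.957 FPKM. In the pair Hist2h2ac and Hist2h2be, 238 bases apart, Hist2h2ac was lowest at P28 with 8.66 FPKM, whereas Hist2h2be was at 3.46, 0.929, 3.61 and 3.82 FPKM and highest there. Hist1h2ak and Hist1h2bn, 295 bases apart, were both higher at E16.5 and P7 than at E18.5 and P28. The share of 50-base words found in another gene was 90.1% in Hist1h2ai and 86.4% in Hist1h2bn. It was 14.1% in Hist1h2ac and 0 in Hist2h2be. Shared words thus limit what the values of the first 2 of these lower partners mean more than those of the others.

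Genes described as giving polyadenylated mRNA in differentiated cells differed less between E16.5 and P28 in their sum than the other members did. This list held Hist1h1c, Hist1h2bc, Hist2h2be, Hist3h2a, Hist4h4, Hist1h2ac and Hist2h2aa1, of which 4 reached 1 FPKM. Their sum was 31.7, 13.6, 31.5 and 25.8 FPKM. The P28 sum was 81.5% of the E16.5 sum, or 86.7% scaled. For the other 59 members without Hist1h4d it was 9.10%, or 9.67% scaled, and with Hist1h4d included it was 16.1%, or 17.1% scaled. The share of the 7 in the histone sum was 4.98%, 12.1%, 9.91% and 31.9% without Hist1h4d, and 2.35%, 3.77%, 4.75% and 10.9% with it. Hist3h2a, which overlaps Trim17 in the annotation, was at 2.49, 0.454, 2.04 and 2.48 FPKM. Of the 4 detected genes 2, Hist1h1c and Hist1h2bc, reached the 5 FPKM needed for a call. Neither was called lower at P28 on log2(FPKM + 1), where 9.51% of all symbols were, and 2 genes are too few to set against that share. Without the added 1, the E16.5 value of Hist1h1c was 2.08 times its P28 value. Hist1h2bc made up more than any other gene of this sum at P28, with 14.0 of 25.8 FPKM.

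The gene models of these members also run far past the stop codon: 880 bases in Hist1h1c, 742 in Hist1h2bc, 2192 in Hist2h2be and 1700 in Hist3h2a. Members were therefore divided at 500 bases after the stop codon, a limit chosen after the values were seen. The longer class holds the 4 genes that prompted the division, so its values partly repeat those of the list above. Of the 12 longer models at 1 FPKM or more, 4 were called at least 2-fold lower at P28 than at E16.5. These were Hist1h1e, Hist1h2bh, Hist1h4c and Hist1h4d. Of the 25 shorter models 18 were called lower as deposited and 16 scaled. Hist1h3g and Hist1h4a left the scaled count because their scaled E16.5 values fell below 5 FPKM. The 5 FPKM needed for a call was reached by 7 of the 12 and 18 of the 25, each of them at E16.5. The counts are thus drawn from members that were high at E16.5. Over all symbols that reached 1 FPKM, 9.51% were lower as deposited and 7.94% scaled. At P28, 2 of the 12 and 15 of the 25 were listed at 0. The median log2 difference was -0.98 (scaled -0.89) in the longer and -2.70 (scaled -2.54) in the shorter models. The P28 sum was 35.5% of the E16.5 sum in the longer models without Hist1h4d, 24.1% with it, and 6.43% in the shorter. Of the 25 shorter models 7 hold no base after the stop codon and may be incomplete, and without them the median was -2.69. Hist1h2bh, with 1258 bases after the stop codon, was an exception, at 14.9 FPKM at E16.5 and listed at 0 at P28. A short model collects fewer fragments at a given FPKM, and the part of this in the counts was not tested. By position of the stem-loop, median differences were -2.48 for models ending within 100 bases of it, -2.13 for models running on past it and -2.87 for models without one. The P28 sum was 5.79% of the E16.5 sum in the first class, 21.6% in the second (19.8% without Hist1h4d) and 14.6% in the third. Of the members at 1 FPKM or more, 9 of 13, 5 of 14 and 3 of 10 were listed at 0 at P28. The sums and the zeros of the first 2 classes thus lay further apart than their medians.

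**Figure D5:**
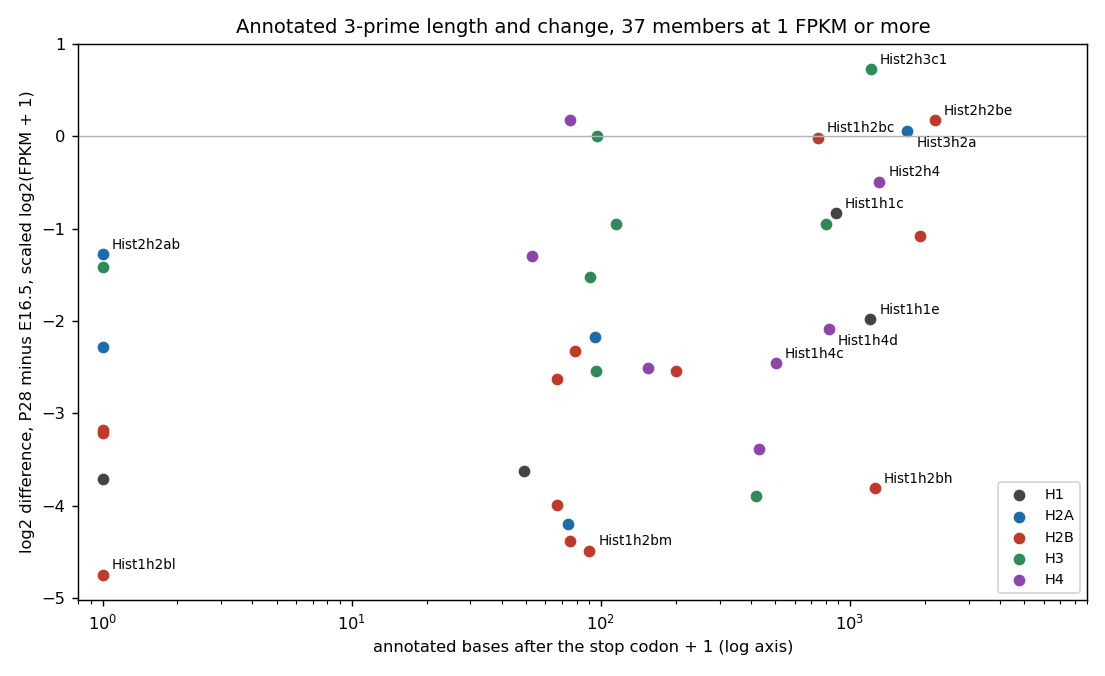
Each point is 1 of the 37 members that reached 1 FPKM. The x axis (log scale) gives the bases after the stop codon in its gene model and the y axis the scaled log2(FPKM + 1) difference, P28 minus E16.5. Models with 500 bases or more have a median of -0.89 and shorter ones of -2.54. The longer models include Hist1h1c, Hist1h2bc, Hist2h2be and Hist3h2a, which prompted this limit.

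Genes that act with the histone genes were compared by lists. The shares of all symbols beside which the counts stand are 22.6% lower at E18.5 than at E16.5 (scaled 5.84%, and 4.49% higher) and 9.51% lower at P28 than at E16.5 (scaled 7.94%). Of 20 genes for histone mRNA transcription and 3′ processing, 14 were at least 2-fold lower at E18.5 than at E16.5 as deposited, 3 were lower and 1 higher scaled, and 5 (4 scaled) were lower at P28 than at E16.5. Slbp, which encodes the stem-loop binding protein, was at 23.1, 5.29, 16.3 and 6.77 FPKM. Casp8ap2, which encodes the histone locus protein FLASH, was at 15.3, 3.89, 14.8 and 7.30 FPKM, and Lsm10, of the U7 particle that directs 3′ cleavage, at 6.88, 1.04, 7.56 and 6.47. As deposited all 3 were lowest at E18.5, a library in which most symbols were low. Scaled, Lsm10 was still lowest there, at 1.79 FPKM, whereas Slbp was at 9.11 at E18.5 and 6.27 at P28. Scaled Casp8ap2 was at 6.70 at E18.5, just under its 6.77 at P28. Of 21 histone chaperone genes, 10 were lower at E18.5 (7 scaled) and 8 (7 scaled) at P28 than at E16.5. Nasp, a chaperone of H3 and H4 also known for H1, was at 54.3, 12.2, 29.1 and 7.95 FPKM.

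Most replication-independent variants are made throughout the cell cycle from ordinary polyadenylated mRNA. Of these 11 genes, 7 were lower at E18.5 (4 scaled) and 9 (8 scaled) at P28 than at E16.5. H2afz, which encodes H2A.Z, was the most abundant, at 801, 114, 391.8 and 132 FPKM, and Cenpa, the H3 variant of centromeres, was at 17.8, 1.19, 12.9 and 0.989. The histone sum without Hist1h4d divided by the sum of variants was 0.496, 0.404, 0.373 and 0.270. With Hist1h4d it was 1.05, 1.30, 0.780 and 0.793. Only without this gene was the ratio lowest at P28.

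Of 39 DNA replication genes, 31 were lower at E18.5 (27 scaled) and 29 (27 scaled) at P28 than at E16.5, and of 30 mitosis genes 30 (29 scaled) and 30 were. Pcna, the sliding clamp of DNA polymerase, was at 109.6, 32.8, 71.3 and 20.9 FPKM, and Rrm2, a subunit of ribonucleotide reductase, at 37.2, 1.21, 31.4 and 2.15. The histone sum without Hist1h4d divided by the replication sum was 1.007, 1.14, 0.767 and 0.835. The highest and lowest of these ratios lay within 1.5-fold of each other. With Hist1h4d the ratio was 2.14, 3.66, 1.60 and 2.46. Divided by the mitosis sum, the histone sum without Hist1h4d gave 0.860, 1.51, 0.619 and 1.39.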

How the data were processed

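The authors deposited 1 table of FPKM with 23931 entries and 1 column per age. Per the submitters' processing notes, reads were handled with TopHat and TopHat2 2.0.9, and GRCm38 and mm10 are named. The program that made the FPKM values, the cDNA priming and the strand setting are not given in the sources used here. FPKM hold no read totals, so depth is unknown. Per the labels' protocols, cDNA was made with the Verso kit and libraries with Nextera XT, and sequenced as paired ends. Columns that matched no sample numbered 0. The value of 1 marker gene is not reported here.

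Entries of 1 symbol were summed (73 histone entries, 67 symbols, 6 with several entries). Differences were taken on log2(FPKM + 1), which understates those of low genes. A gene was counted at 2-fold or more with 5 FPKM or more in the higher library, and medians used genes that reached 1 FPKM in some library. In scaled counts the minimum of 5 FPKM was applied to the scaled values, so a member can leave a count through the minimum alone. Scaled values are FPKM divided by median-ratio factors. With 1 library per age there was no test. The calculation was tested on simulated data. Python 3.11.15, numpy 2.4.6, pandas 2.3.3 and matplotlib 3.10.9 were used.

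Named genes were members at 5 FPKM or more, the 3 largest and 3 smallest differences per comparison, members of the polyadenylated and testis lists, and from each other list the most abundant gene and up to 4 with the largest difference. The members, the 13 lists and the tests were chosen with earlier results of these data known. Alternatives were scaling, pseudocount, minimum, fold and Hist1h4d. Leaving out members that share over 90% of their 50-base words was added after seeing the data.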

Additional observations from a re-analysis of the deposited data

How the results depend on the processing

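No paired analysis was possible because each age has 1 library, and leaving out a library would leave its age empty. Of 194 alternative values, 127 stayed within 1.5-fold of the value reported and 67 did not. This tally does not measure robustness, because many of its entries were settled in advance. A scaled sum is the deposited sum divided by the factor of its library, and only the E18.5 factors exceed the 1.5-fold limit. Leaving members under 1 FPKM out of a sum removed little of it. Counts with no member in either version were entered as unchanged. The order of E18.5 and P7 turned with either scaling for the H2A, H3, H4 and total sums. The H1 order turned with upper-quartile scaling only, which put P7 (36.33 FPKM) just under E18.5 (36.41 FPKM). Leaving out members with over 90% shared words, which left 55, moved none. Depth is unknown: how many fragments a value such as the 0.546 FPKM of Hist1h2ag at E16.5 rests on was not tested.

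Medians depended on scaling and pseudocount. For E18.5 minus E16.5 the median was -0.94 with median-ratio scaling, -0.96 with upper-quartile scaling, -2.64 with a pseudocount of 0.1, -0.94 with 5, and -0.61 over all members with no minimum. For P7 minus E18.5 these 5 values were 0.48, 0.40, 1.85, 0.54 and 0.36. With pseudocounts of 0.1 and 5 and with no minimum, the median was -3.46, -0.71 and -0.33 for P28 minus P7 and -4.15, -1.13 and -0.63 for P28 minus E16.5. For P7 minus E16.5 it was -0.12 with no minimum.

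Counts of members lower at E18.5 than at E16.5 were 14 with either scaling, 11 with a minimum of 20 FPKM and 15 at 4-fold. Members higher at P7 than at E18.5 numbered 6 with either scaling, 8 with a pseudocount of 5, 22 with no minimum, 3 with 20 FPKM and 8 at 4-fold. Those lower numbered 2 with median-ratio scaling, 3 with upper-quartile scaling, 2 with no minimum, and 0 with a pseudocount of 5, with 20 FPKM and at 4-fold. For P28 minus P7, 9 were lower with either scaling, 26 with no minimum and 6 with 20 FPKM, and 1 was higher with no minimum. For P7 minus E16.5, 9 were lower with a pseudocount of 5, 8 with 20 FPKM and 1 at 4-fold, and 1 was higher with no minimum. For P28 minus E16.5, 11 were lower with 20 FPKM.

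The E18.5 sums with median-ratio and upper-quartile scaling were 34.9 and 36.4 FPKM for H1, 63.0 and 65.9 for H2A, 30.7 and 32.1 for H2B, 15.2 and 15.9 for H3, 479.9 and 501 for H4, and 624 and 651 in all. Without Hist1h4d, the ratio of the histone sum to the replication sum was 1.007, 1.14, 0.767 and 0.835 in order of age, that to the variant sum 0.496, 0.404, 0.373 and 0.270, and the H2B percent 45.7, 15.9, 42.6 and 29.7.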
